A study of Mus musculus with 6 samples.

Results

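The 50 genes described here drive or restrain cell division and the copying of DNA. They cover the E2F and Rb families, the cyclins and their kinases, the kinase inhibitors, p53 with some of its targets, the replication machinery, the enzymes of nucleotide synthesis, and the proteins of mitosis. They were picked by name, with earlier results of these data known. Every probe whose deposited gene name equals one of them was taken, ignoring letter case. This gave 90 probes for 47 of the 50 genes, out of 25697 probes and 18138 gene names on the arrays. The array values of Cdk4, Mki67 and Aurkb were not analysed here.

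RNA was read on 6 MouseRef-8 v2.0 BeadChip arrays, with 2 arrays for each of 3 cultured mouse lines. EPC, the primary line, began as cells sorted from the lung of adult athymic nude mice for Flk-1 and c-Kit on the surface and for the lack of CD45, and was used at passage 3 to 6. EPC_acLDL was derived by labelling with fluorescent acetylated low density lipoprotein (acLDL), sorting the positive cells and growing them again, and was also used at passage 3 to 6. EPC_Late is the EPC_acLDL line at high passage, used at passage 16 to 20. All 3 lines share the nude background, the lung source, the first sort, and a mouse endothelial medium with serum and growth factors. EPC_acLDL differs from EPC by a second sort as well as by acLDL uptake, and passage and culture history cannot be told apart in EPC_Late. Of 18 endothelial markers, Kdr (Flk-1) lay above background on all 6 arrays, and the other 17, Pecam1 and Cdh5 among them, on none.

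A dividing cell commits itself in G1, when D-type and E-type cyclins with their kinases phosphorylate the Rb proteins and release the E2F factors. E2F factors then switch on genes for nucleotide synthesis and for licensing of replication origins, where the Mcm2 to Mcm7 helicase is loaded by Cdc6 and Cdt1. Later the mitotic cyclins, the Aurora and Polo kinases and the spindle checkpoint guide the separation of chromosomes. Inhibitors of the Cdkn1 and Cdkn2 families, and p53 through targets such as Cdkn1a and Gadd45a, hold the cycle back. In progenitor cells grown in culture these genes are commonly read as signs of division, arrest or ageing of the culture.

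Each probe carries 1 deposited intensity and 1 detection p-value per array. That p-value tells what share of the negative controls on the array shone as brightly, and a probe is called above background here where it is under 0.05. Over the whole array 2333 probes (9.08%) were above background on the 2 arrays of 1 line or more, and 22811 (88.8%) on no array. The lowest intensity called above background was 416.5 to 468.6, depending on the array. A probe that is not above background does not show that its transcript is missing. Of 12 genes that nearly every cell uses, picked after the values were seen, 7 had no probe above background, Gapdh among them, while the single probe of Ppia was above background on every array. Replicate arrays had Pearson correlations of 0.989 to 0.992 across the 2333 probes, which are not independent replicates. Whether the 2 arrays of a line came from separate cultures is not clear from the labels and methods, so p-values may measure technical spread alone. Fewer cells of a type and less RNA per cell cannot be told apart in these bulk samples.

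Most of the cell cycle probes were at background. Of the 90 probes, 5 were above background on all 6 arrays, 3 more on both arrays of some line but not on all 6, and 82 (91.1%) on no array. The 8 probes that could be compared (8.89%) belong to 8 genes, E2f1, Ccnd3, Cdk2, Cdkn2c, Gadd45a, Tyms, Cdc20 and Birc5. For the other 39 genes no probe was above background on any array. The 82 probes had mean intensities of 256.2 to 415, with a median of 317.3, close to the array medians of 304.6 to 358.7. Of the 8 genes, 7 have further probes, 16 in all, and none of these was above background on any array (mean intensities of 256.2 to 361.8). E2f1 has a single probe. Each value below therefore rests on 1 probe. This was common on these arrays, since of 773 genes with several probes and at least 1 above background on all 6 arrays, 702 (90.8%) had another that was above background on none. Whether each probe reads the gene it is named for was not tested, and the gene names are given as deposited.

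**Figure D1:**
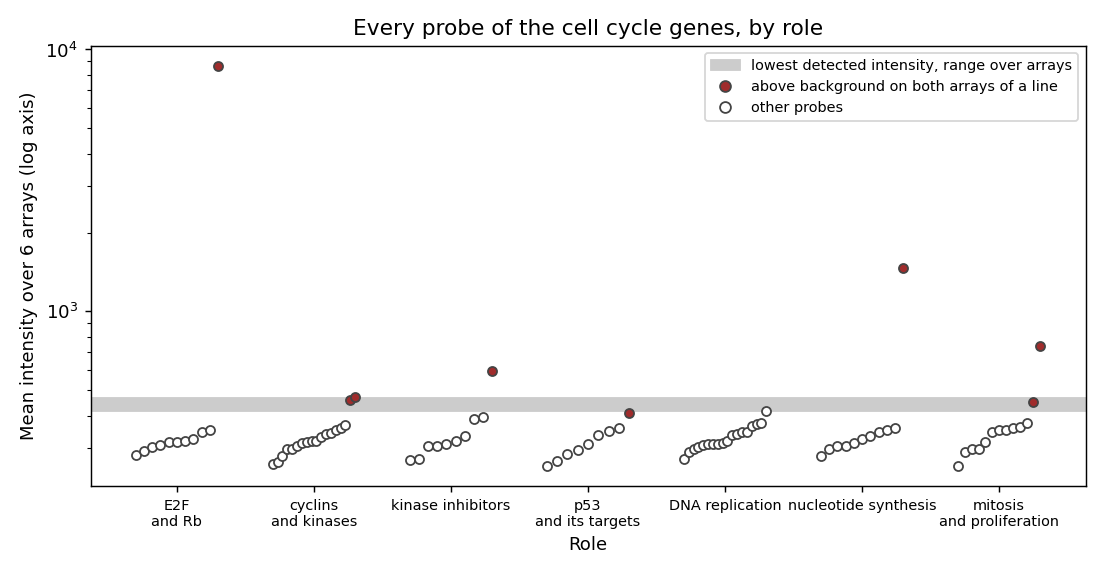
Mean intensity over the 6 arrays of each of the 90 probes (log axis), grouped by the role of the gene. Filled points are the 8 probes that could be compared, and the grey band is the lowest intensity called above background, 416.5 to 468.6 over the arrays. All 18 probes of the DNA replication genes are open points, the highest of them Mcm5 at 415.

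By role, 1 of the 7 E2F and Rb genes could be compared, 2 of the 10 cyclins and kinases found, 1 of the 4 kinase inhibitors, 1 of the 4 genes of p53 and its targets, 1 of the 4 of nucleotide synthesis and 2 of the 8 of mitosis and proliferation found. None of the 10 replication genes could be compared. These are Pcna (the sliding clamp), Mcm2 to Mcm7, Cdc6, Cdt1 and Gmnn (geminin, which blocks Cdt1), read by 18 probes with mean intensities of 272.3 to 415. Mcm5 came nearest to the detection threshold, with a lowest detection p-value of 0.0526. Also at background on every array were Rrm1 and Rrm2 (subunits of ribonucleotide reductase), Tk1 (thymidine kinase), Top2a (topoisomerase II alpha), Plk1, Aurka, Bub1, Bub1b and Mad2l1, and the inhibitors Cdkn1a, Cdkn1b and Cdkn2a. No statement on a difference between lines can be made for these genes. Trp53, Mdm2 and Ccng1 were also not above background on any array, nor were Rb1, Rbl1, Rbl2, E2f2, E2f3 and E2f4.

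The arrays labelled EPC_Late were lower than those of both other lines for E2f1, Tyms and Birc5, while none of the 8 probes passed between EPC_acLDL and EPC. Directions here follow the deposited array labels and intensities. They run opposite to those that the study lists for E2f1, Tyms, Gadd45a, Ctps and Zw10 in both comparisons with EPC_Late. Whether array labels or the headings of that list were exchanged was not tested, so every direction given here holds only under the array labels. In EPC_Late against EPC, 5 of the 8 probes passed the threshold, an adjusted p below 0.05 from limma with Benjamini-Hochberg adjustment over the 2333 probes tested. E2f1, Tyms and Birc5, above background on all 6 arrays, fell. Ccnd3 was called lower and Gadd45a higher, each read above background on one side of the comparison only. Of all probes tested, 23.9% passed in this comparison, 10.9% higher and 13% lower in EPC_Late. In EPC_Late against EPC_acLDL, 4 of 8 fell, the same E2f1, Tyms, Birc5 and Ccnd3, and none rose, where 20.9% of all probes passed, 9.34% higher and 11.5% lower. Both comparisons use the same EPC_Late arrays. In EPC_acLDL against EPC none of the 8 passed by limma, where 3.3% of all probes did. None of the 8 had an unadjusted p below 0.05 by limma, where 469 of the 2333 probes did, and 2 (E2f1 and Ccnd3) had one by the two-sample test of the methods, where 355 of the 2333 did. The median log2 difference over the 8 probes was 0.04 for EPC_acLDL against EPC, -0.51 for EPC_Late against EPC and -0.45 for EPC_Late against EPC_acLDL, while over all probes tested it was 0.01, 0.01 and 0. Ccnd3, Cdc20 and Gadd45a passed the filter on detection only through the lines in which they were bright, so their directions, and their part in these counts and medians, were partly set by that filter. Without either EPC_acLDL array, or without either EPC_Late array, 3 probes passed in EPC_Late against EPC. Without EPC_acLDL replicate 1, 2 passed in EPC_Late against EPC_acLDL.

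**Figure D2:**
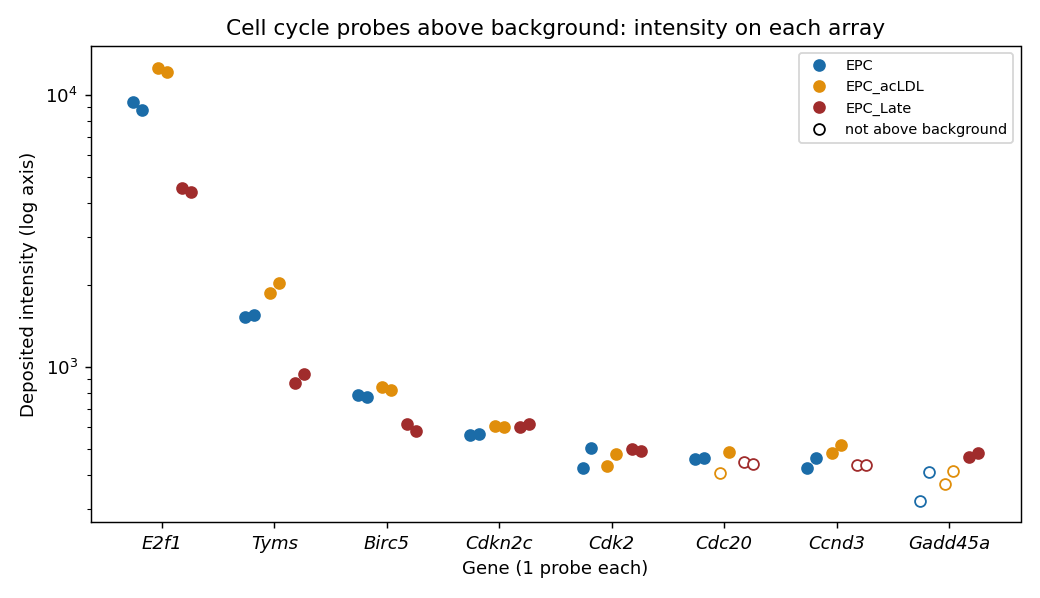
Deposited intensity (log axis) of the 8 probes on each array, 2 points per line, with open points where the detection p-value was 0.05 or more. For E2f1, Tyms and Birc5 both EPC_Late arrays lie under all 4 arrays of the other lines, and Gadd45a is filled only in EPC_Late.

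E2f1 is the activating E2F factor that Rb restrains until the cell enters S phase. Its probe, ILMN_1231138, had intensities of 9435 and 8821 in EPC, 12610 and 12110 in EPC_acLDL, and 4549 and 4395 in EPC_Late. In these deposited intensities the 3 lines did not overlap, with EPC_Late lowest and EPC_acLDL highest. After background correction and normalization the log2 signal of E2f1 averaged 12.06 ± 0.06 (SD, n = 2) in EPC_Late, against 13.20 ± 0.04 (SD, n = 2) in EPC and 13.40 ± 0.02 (SD, n = 2) for the acLDL-sorted line. Against EPC, EPC_Late was 2.2-fold lower for E2f1, with a log2 difference of -1.14 (SE 0.11, limma adjusted p = 0.000953). Against EPC_acLDL it was 2.53-fold lower, a log2 difference of -1.34 (SE 0.11, limma adjusted p = 0.000801). Between EPC_acLDL and EPC the log2 difference of E2f1 was 0.20 (SE 0.11, limma adjusted p = 0.354), and did not pass. The fall of E2f1 in EPC_Late passed under 16 of 17 other settings in each comparison, the exception being the two-sample test of the methods after adjustment. The log2 difference to EPC lay between -1.18 and -1.07 under all of them. Of its partners, no E2F or Rb family probe besides E2f1 was above background.

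Among the cyclins and kinases found, Ccnd3 and Cdk2 could be compared. Ccnd3 encodes cyclin D3, a partner of the G1 kinases. Its probe was near background, with intensities of 425.1 and 461.2 in EPC, 483.7 and 518.1 in EPC_acLDL, and 436.8 and 433.8 in EPC_Late. EPC_Late overlapped EPC in these deposited intensities and was not above background (detection p-values of 0.058 and 0.076), while EPC_acLDL lay above both. On the normalized scale EPC_Late lay under both lines, with log2 signals of 6.64 and 6.41 against 6.92 and 7.03 in EPC. With EPC_Late at the background bound on this scale, EPC was 1.13-fold higher. This bound holds on that scale alone, since without background correction the log2 difference against EPC was -0.14. In the main setting Ccnd3 was called lower than in EPC, with a log2 difference of -0.45 (SE 0.13, limma adjusted p = 0.0495). This call was lost under each of the 16 other settings that could test it (adjusted p from 0.0586 to 0.245, or 0.0739 by the two-sample test unadjusted). By the same bound EPC_acLDL was 1.37-fold higher than EPC_Late, where without background correction the log2 difference was -0.23. In the main setting Ccnd3 was also called lower than in EPC_acLDL, with a log2 difference of -0.72 (SE 0.13, limma adjusted p = 0.0109). That call was lost without EPC_acLDL replicate 1 (limma adjusted p = 0.0724), EPC_acLDL replicate 2 (0.0713) or EPC_Late replicate 2 (0.0542).

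Cdk2 is the kinase that cyclins E and A activate at the start of S phase and through it. Its intensities were 424.6 and 502.1 in EPC, 432.1 and 478.9 in EPC_acLDL, and 499.1 and 490.7 in EPC_Late, above background on all 6 arrays by a small margin (detection p-values of 0.015 to 0.048). In these intensities the EPC arrays enclosed all the others. No comparison of Cdk2 passed, with a log2 difference of -0.04 (SE 0.20, limma adjusted p = 0.917) for EPC_Late against EPC and 0.30 (SE 0.20, limma adjusted p = 0.371) against EPC_acLDL. The spread between the EPC arrays, an SD of 0.38 on the log2 scale, was the largest of that line among the 5 probes above background on all arrays. Cyclins Ccna2, Ccnb1, Ccnb2, Ccnd1, Ccnd2, Ccne1 and Ccne2 and the kinase Cdk6 were at background on every array.

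Cdkn2c encodes p18, an inhibitor of the kinases that pair with D-type cyclins. Its intensities of 562.3 and 565.4 in EPC, 603.5 and 601.9 in EPC_acLDL, and 599.4 and 615.1 in EPC_Late differed little. On the normalized scale the lines overlapped in the comparisons with EPC. The log2 difference of Cdkn2c was 0.02 (SE 0.12, limma adjusted p = 0.929) for EPC_Late against EPC and 0.08 (SE 0.12, limma adjusted p = 0.715) against EPC_acLDL, and under the other settings the first stayed between -0.05 and 0.10. This inhibitor was the one of the 4 that could be read.

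Gadd45a, a target of p53 that responds to DNA damage and growth arrest, moved the other way from E2f1 under the array labels. Its intensities were 322.2 and 410 in EPC, 370.1 and 413.2 in EPC_acLDL, and 466.9 and 481.5 in EPC_Late. Only the EPC_Late arrays were above background (detection p-values of 0.04 and 0.039), and both were brighter than the 4 other arrays. The log2 difference of Gadd45a was 0.86 (SE 0.19, limma adjusted p = 0.0217) for EPC_Late against EPC, and at least 1.08-fold higher with EPC at the background bound. Against EPC_acLDL, also not above background, it was 0.67 (SE 0.19, limma adjusted p = 0.0581, background bound 1.13-fold), and did not pass. The size rests on single EPC arrays, with a log2 difference to EPC of 0.57 without EPC replicate 1 and 1.17 without EPC replicate 2, and it was 0.30 without background correction. The call against EPC held under 9 of 16 other settings and was lost without either EPC_acLDL array (adjusted p = 0.0591 for each), without EPC_Late replicate 1 (0.0953) or replicate 2 (0.097), and with the 4 arrays of the 2 lines alone (0.0576). The call against EPC_acLDL was gained without either EPC array (limma adjusted p = 0.0141 and 0.0133). The other probe of Gadd45a was at background on every array, with a mean intensity of 358.2.

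Tyms encodes thymidylate synthase, which makes the thymidine nucleotide that DNA synthesis needs. Its probe, 1 of 5 for the gene, had intensities of 1530 and 1553 in EPC, 1862 and 2033 in EPC_acLDL, and 871.1 and 942.2 in EPC_Late. All 6 arrays were well above background and the 3 lines did not overlap. Tyms was 2.37-fold lower in EPC_Late than EPC, with a log2 difference of -1.25 (SE 0.12, limma adjusted p = 0.000972). Against EPC_acLDL it was 2.61-fold lower, a log2 difference of -1.38 (SE 0.12, limma adjusted p = 0.000941). Between EPC_acLDL and EPC the log2 difference of Tyms was 0.14 (SE 0.12, limma adjusted p = 0.581). The fall in EPC_Late passed under 16 of 17 other settings in each comparison, all but that test, with log2 differences to EPC of -1.32 to -0.88.

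Birc5 encodes survivin, a subunit of the chromosomal passenger complex that is made mainly in G2 and mitosis. Its intensities were 785.2 and 773.5 in EPC, 841.1 and 822.7 in EPC_acLDL, and 615.7 and 582.3 in EPC_Late. It was above background on all 6 arrays, and both EPC_Late arrays lay under the 4 others. Birc5 was 2.01-fold lower in EPC_Late than in EPC after background correction, a log2 difference of -1.01 (SE 0.14, limma adjusted p = 0.00311). Without background correction the difference was smaller, and over all other settings it ran from -1.16 to -0.51. Against EPC_acLDL it was 1.84-fold lower, a log2 difference of -0.88 (SE 0.14, limma adjusted p = 0.00719), and this call was lost without EPC_acLDL replicate 1 (limma adjusted p = 0.0615).

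Cdc20, the activator of the anaphase promoting complex, stood at the edge of background. Its intensities were 458.2 and 463.8 in EPC, 407.3 and 487.5 in EPC_acLDL, and 447.9 and 437.7 in EPC_Late, with both EPC arrays and EPC_acLDL replicate 2 above background. In these intensities the EPC_acLDL arrays lay on either side of all the others. The log2 difference of Cdc20 was -0.57 (SE 0.19, limma adjusted p = 0.0757) for EPC_Late against EPC, which did not pass. EPC_Late was not above background here, so this difference has no measured size (background bound 1.3-fold, on the normalized scale only). Without background correction it was -0.18, and the deposited intensities of the 2 lines lay close together. In the main setting the log2 difference was -0.17 (SE 0.19, limma adjusted p = 0.613) against EPC_acLDL.

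**Figure D3:**
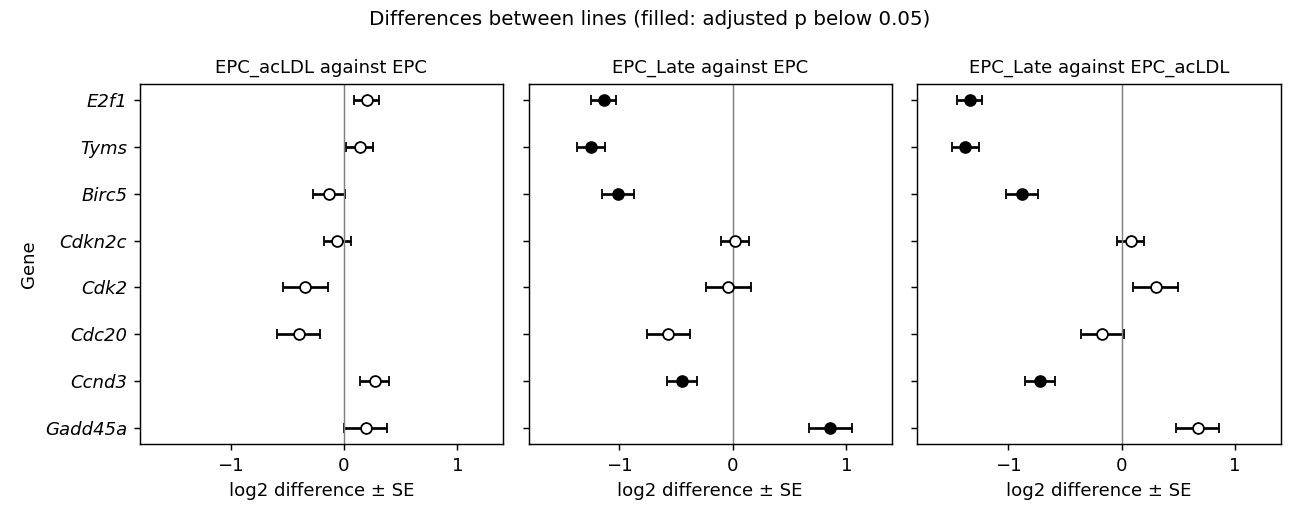
Log2 differences between the line means of the 8 probes with their SE from limma, in the 3 comparisons, filled where the adjusted p was below 0.05. In both panels with EPC_Late the points of E2f1, Tyms and Birc5 lie between -1.38 and -0.88, while those of EPC_acLDL against EPC lie between -0.40 and 0.27 with none filled.

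A wider set of 190 genes of the same processes, without the 50, was read for comparison. These genes too were chosen with earlier results of these data known. On the arrays 179 of them were found with 298 probes, of which 30 (10.1%) could be compared. In EPC_Late against EPC, 8 of the 30 probes were lower and 2 higher, and in EPC_Late against EPC_acLDL 8 were lower and 1 higher. Over all probes tested the shares were 13% lower and 10.9% higher in the first and 11.5% lower and 9.34% higher in the second. The median log2 difference over the 30 was -0.15 and -0.17. These counts and medians include Espl1, Trp53inp1 and 1 probe of Bbc3, which passed the detection filter only through EPC, EPC_acLDL and EPC_Late in that order, so their directions were partly set by the filter. In EPC_acLDL against EPC 1 was higher, Pole3 (a subunit of DNA polymerase epsilon), and 1 lower, Espl1 (separase), where 3.3% of all probes passed, and both calls were lost when any 1 array was left out. The probe of Espl1 was not above background in EPC_acLDL or EPC_Late.

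Nucleotide synthesis was the group with the most calls among these, 4 of 7 probes lower in EPC_Late than in EPC and 3 of 7 lower than in EPC_acLDL, with none higher, where 13% and 11.5% of all probes were lower. Of the 4 calls against EPC, 2 are probes of the same gene, Nme2. Ctps (CTP synthase) had intensities of 4930 and 4703 in EPC, 4862 and 4785 in EPC_acLDL, and 1612 and 1777 in EPC_Late. Cad, which carries the first steps of pyrimidine synthesis, had 1939 and 1756 in EPC, 1683 and 1720 in EPC_acLDL, and 861 and 829 in EPC_Late. In both genes the EPC_Late arrays lay far under the 4 others, as for Tyms. Ctps was 3.41-fold lower in EPC_Late than EPC, with a log2 difference of -1.77 (SE 0.11, limma adjusted p = 0.00022), and Cad was 3.29-fold lower, with -1.72 (SE 0.12, limma adjusted p = 0.000271). The direction for Ctps, as for Zw10 below, is opposite to the one the study lists. Nme2, a nucleoside diphosphate kinase, was lower than in EPC by both of its probes above background (log2 differences of -1.47 and -0.65, limma adjusted p = 0.00203 and 0.0207). Dut, Umps and Impdh2 did not pass in either comparison.

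Of the 7 replication probes that could be compared outside the 50 genes, 2 were lower in EPC_Late than in EPC and none was higher, where 13% of all probes were lower and 10.9% higher. Cdc45, a part of the replicative helicase together with the Mcm proteins, had intensities of 2077 and 2322 in EPC, 2881 and 2710 in EPC_acLDL, and 1292 and 1259 in EPC_Late. The EPC_Late arrays lay under the 4 others. On the normalized scale EPC_acLDL and EPC differed by 0.13 (SE 0.12, limma adjusted p = 0.588), which did not pass. Cdc45 fell by 1.07 on the log2 scale against EPC (SE 0.12, limma adjusted p = 0.00143) and by 1.20 against EPC_acLDL (SE 0.12, limma adjusted p = 0.00128). Pold2, a subunit of DNA polymerase delta, was lower than in EPC (log2 difference -0.43, limma adjusted p = 0.0316). Against EPC_acLDL the probes lower were Cdc45 and Pole3 (log2 difference -0.54, limma adjusted p = 0.0288). The origin recognition genes Orc2 and Orc5, and Rfc5, did not pass.

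Among 7 mitosis probes, where 13% and 11.5% of all probes were lower, Zw10 and Espl1 were lower in EPC_Late in both comparisons (Zw10 by 2.01-fold and 1.93-fold, limma adjusted p = 0.00168 and 0.00274). For Espl1, with EPC_Late at the background bound on the normalized scale, EPC was 1.44-fold higher (log2 difference -1.43, limma adjusted p = 0.00128). This bound holds on that scale alone, as the deposited intensities were 446.7 and 505 in EPC and 364.4 and 379.2 in EPC_Late. In the other comparison neither line was above background. Espl1 passed the detection filter only through EPC, so its direction was partly set by that filter. Foxm1, Cenpa, Mad1l1 and Anapc5 did not pass. Among 7 probes of DNA damage and p53 genes, 2 were higher in EPC_Late than in EPC (10.9% of all probes were), Plk3 and 1 of 2 probes of Bbc3 (Puma, a p53 target in cell death), and against EPC_acLDL that Bbc3 probe was called higher. Trp53inp1 was called lower there, but it was above background only in EPC_acLDL and no fold can be given. The Bbc3 probe was above background only in EPC_Late, as Gadd45a was, so its direction was partly set by the detection filter. With EPC at the background bound on the normalized scale, EPC_Late was 1.29-fold higher (log2 difference 0.98, limma adjusted p = 0.00872). The other probe of Bbc3 read 0.13 and did not pass. Neither of the 2 probes of G1 regulators that could be compared, Cdk9 and Tfdp2, passed.

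**Figure D4:**
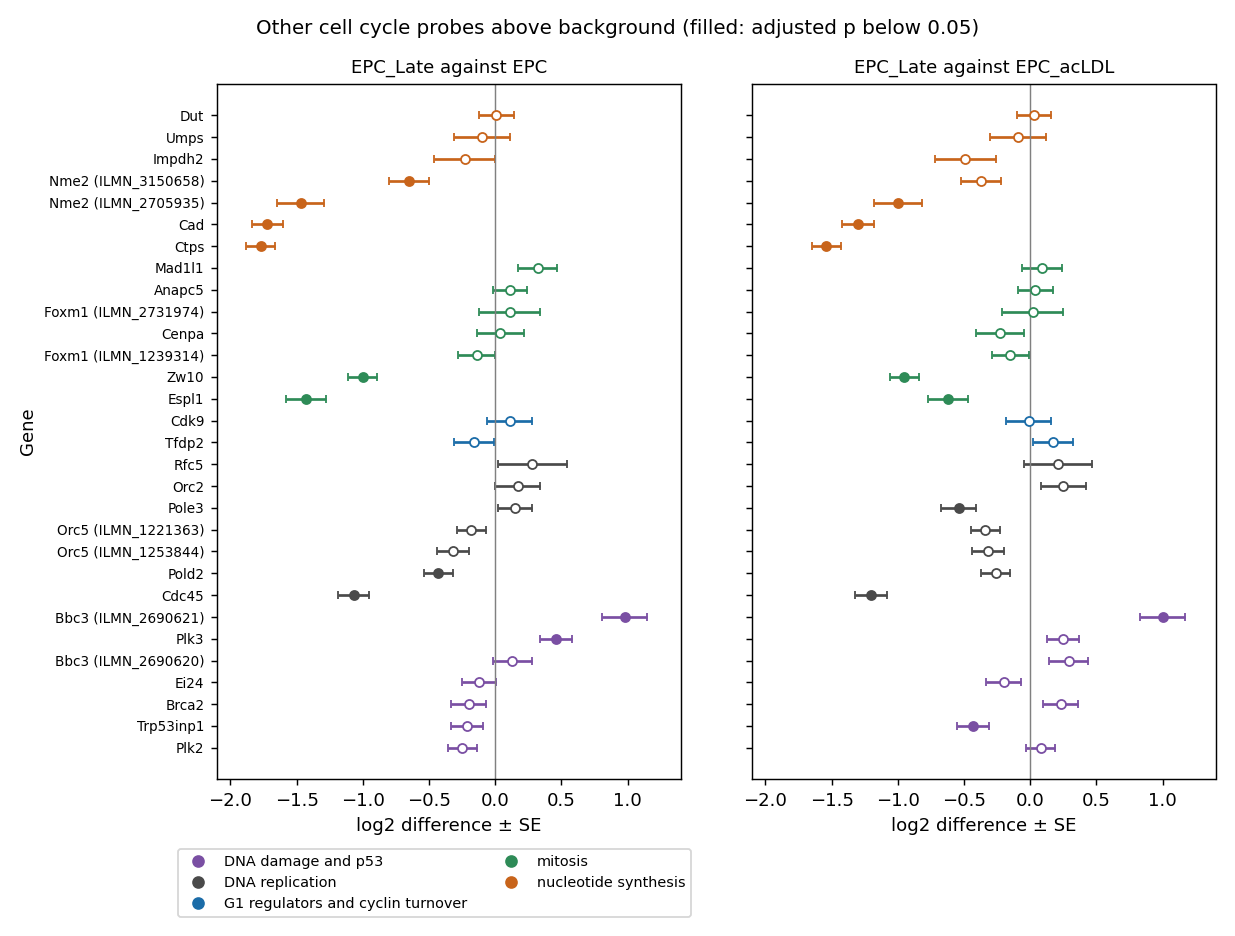
Log2 differences with SE from limma for the 30 probes of the wider cell cycle set in EPC_Late against EPC and against EPC_acLDL, coloured by process and filled where the adjusted p was below 0.05. The points furthest to the left are Ctps at -1.77 and Cad at -1.72 against EPC.

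Markers of other cell types gave few readable probes beside these changes. Of 14 haematopoietic markers 2 could be compared. Coro1a was lower in EPC_Late than in EPC (log2 difference -1.29, limma adjusted p = 0.0147), with 1 of the 2 EPC_Late arrays above background. Csf1r did not pass (0.12), where 13% of all probes were lower. Of 14 mesenchymal markers 3 could be compared. Col1a2 was higher (log2 difference 0.43, limma adjusted p = 0.047), where 10.9% of all probes were. S100a4 (0.22) and Acta2 (-0.18) did not pass. Neither Coro1a nor Col1a2 was called against EPC_acLDL (limma adjusted p = 0.0609 and 0.439). For the epithelial list 2 of 12 markers could be compared with no call, and none of 5 erythroid markers was above background. Kdr differed by 0.01 between EPC_Late and EPC. The summed intensity of the 18 endothelial markers was 8644 to 9603 in EPC, 8638 to 9579 in EPC_acLDL and 9434 to 9994 in EPC_Late. The summed intensity of the haematopoietic list was 7270 to 7860, 7059 to 8042 and 7650 to 8102 in the same order, and that of the mesenchymal list 6929 to 7403, 6958 to 7682 and 7420 to 8001. The epithelial list summed to 4087 to 4535, 4179 to 4416 and 4658 to 4831, and the erythroid list to 1567 to 1646, 1516 to 1698 and 1625 to 1725. These sums are of intensities that were not normalized, most of them at background, so they do not measure the share of a cell type. The array medians were 311 and 342.4 in EPC, 304.6 and 345.2 in EPC_acLDL, and 336.6 and 358.7 in EPC_Late. The part of other cell types in the changes of the cell cycle probes was not tested.

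Many cell cycle genes carry E2F, CHR or CCAAT motifs before their start, and the promoters were searched for them. The RefSeq stretches of 300 bases around gene starts (250 before and 50 after, GRCm38.p6) matched 41 of the 50 genes, with 48 stretches. They were searched on both strands for 3 E2F motifs (TTTCCCGC, TTTGGCGC and TTTGCCGC), for the CHR motif TTTGAA of late cell cycle genes, and for CCAAT, and no motif contains another. An E2F motif was found in 20.8% of the 48 stretches against 1.99% of all 32851, the CHR motif in 22.9% against 17.9%, and CCAAT in 62.5% against 37.4%. The 48 include the stretch of E2f1, which lies 466 bases inside its gene. Starts were checked against the annotated gene only for E2f1, Tyms, Birc5, Cdk2 and Cdc20. The 10 genes with an E2F motif were Cdc6, Cdk2, Cdkn2a, Cdt1, E2f2, E2f3, Mcm3, Mcm5, Mcm6 and Mcm7, and of these Cdk2 alone had a probe to compare. The replication genes among them were at background on every array.

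The promoters of 4 genes are shown in the 250 bases before the gene start, 5′ to 3′ on the strand of the gene, for Tyms and Birc5 as called genes above background on all arrays and for Cdk2 and Cdc20 as the compared genes with an E2F or a CHR motif. Capitals mark the E2F, CHR and CCAAT motifs. Tyms (chr5:30073626-30073875, minus strand) and Birc5 (chr11:117848987-117849236, plus strand), which fell, hold none of these motifs here, and Cdk2 (chr10:128705052-128705301, minus strand) and Cdc20 (chr4:118437344-118437593, minus strand), which did not pass, hold the E2F and the CHR motif. The stretches of Ccnd3, called lower in EPC_Late, of Gadd45a, called higher than in EPC, and of Cdkn2c, which did not pass, each hold a CCAAT box. The probes of Ccnd3 and Gadd45a passed the detection filter only through the lines in which they were bright. A link between motifs and calls was not tested. The start used for Tyms lies 20 bases inside the annotated gene. E2f1 is not shown, since the start in the table lies 466 bases inside its gene.
Tyms: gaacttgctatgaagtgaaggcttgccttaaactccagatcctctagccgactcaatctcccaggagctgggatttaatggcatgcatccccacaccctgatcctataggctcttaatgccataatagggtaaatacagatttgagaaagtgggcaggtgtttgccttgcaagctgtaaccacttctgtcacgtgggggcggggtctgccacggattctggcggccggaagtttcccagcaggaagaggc
Birc5: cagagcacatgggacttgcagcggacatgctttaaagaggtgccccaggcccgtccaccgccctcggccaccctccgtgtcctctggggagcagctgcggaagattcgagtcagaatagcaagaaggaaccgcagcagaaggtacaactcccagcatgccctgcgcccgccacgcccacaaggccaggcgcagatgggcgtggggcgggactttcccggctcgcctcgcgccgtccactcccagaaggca
Cdk2: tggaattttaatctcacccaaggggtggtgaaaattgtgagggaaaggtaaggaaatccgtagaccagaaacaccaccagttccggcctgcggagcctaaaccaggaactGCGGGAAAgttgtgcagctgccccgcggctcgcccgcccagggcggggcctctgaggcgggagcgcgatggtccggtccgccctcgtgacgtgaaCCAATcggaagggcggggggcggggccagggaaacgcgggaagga
Cdc20: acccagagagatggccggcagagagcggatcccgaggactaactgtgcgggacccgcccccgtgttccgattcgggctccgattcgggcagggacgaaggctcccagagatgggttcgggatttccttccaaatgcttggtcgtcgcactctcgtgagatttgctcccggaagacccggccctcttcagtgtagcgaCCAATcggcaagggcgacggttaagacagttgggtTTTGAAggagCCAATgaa
In Cdk2 the E2F motif, read on the minus strand as GCGGGAAA, begins 140 bases before the start and a CCAAT box 45 bases before it. In Cdc20 the CHR motif begins 18 bases before the start, with CCAAT boxes at 53 and 8 bases. A match is a description of letters, and the absence of one in these windows says nothing about whether a factor binds.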

How the data were processed

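The authors deposited a linear intensity and a detection p-value for every probe on the 6 arrays, with the gene names of the array's maker. The values are BeadStudio 3.1 output, already corrected for local background and not yet normalized.

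These intensities were processed with limma 3.58.1 in R 4.3.3. The neqc function estimated the background from the detection p-values, added an offset of 16 and quantile normalized on the log2 scale. The filter asked for detection p-values under 0.05 on the 2 arrays of some line. The 3 comparisons were tested in one fit of all 6 arrays (lmFit and eBayes) with Benjamini-Hochberg adjustment over the 2333 kept probes. Where both arrays of a line were not above background, its fold is a bound against the lowest signal above background on each array or the probe's own, whichever was higher. Each bound holds on the background-corrected, normalized scale, and deposited intensities can differ by less.

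The members and lists were chosen with earlier results of these data known. In the wider set, the genes named with intensities had the largest called changes (up to 3 in each direction and comparison) with no overlap of arrays, except that Cdc45 against EPC and the others were named after their values were seen. Alternatives were other background corrections, scalings and filters, a replicate block, leaving out single arrays, limma-trend, the 4 arrays of 2 lines alone, and the two-tailed t-test that the methods name. The steps were tested on simulated data.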

Additional observations from a re-analysis of the deposited data

How the results depend on the processing

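The falls of E2f1, Tyms and Birc5 in EPC_Late kept their direction under all 17 alternatives in both comparisons. After adjustment the methods' t-test, run on each comparison alone, called none of the cell cycle probes in any comparison, where it called 15, 11 and 1 of all probes for EPC_Late against EPC, EPC_Late against EPC_acLDL and EPC_acLDL against EPC. The count of member probes in EPC_Late against EPC, 5 in the main setting, was 3 with a stricter detection filter, with the 4 arrays of the 2 lines alone and by the unadjusted t-test, and 0 by the adjusted t-test. It ran from 3 to 4 with 1 array left out. In EPC_Late against EPC_acLDL the 4 became 0 by the adjusted t-test and ran from 2 to 5 with 1 array left out. In EPC_acLDL against EPC the 0 became 2 by the unadjusted t-test, under which the calls over all probes went from 77 to 355. In the wider set, the 10 probes of EPC_Late against EPC became 0 by the adjusted t-test and 6 to 9 with 1 array left out, the fewest without EPC_Late replicate 2. The 9 of EPC_Late against EPC_acLDL became 0 by the adjusted t-test and 4 to 8 with 1 array left out, with 4 without either EPC_acLDL array and 5 without EPC_Late replicate 2. The 2 of EPC_acLDL against EPC became 4 without background correction, 1 with a shift to the 75th percentile or without normalization, 9 by the unadjusted t-test, and 0 with no detection filter, with the replicate block, with 4 arrays, by the adjusted t-test and with any 1 array left out (0 to 0). Over all probes the 77 became 273 without background correction, 138 with the shift, 285 without normalization, 50 with no detection filter, 35 with 4 arrays and 9 to 36 with 1 array left out. The causes were not tested.

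Differences that changed sign were small in the main setting and had not passed. For EPC_acLDL against EPC, Cdkn2c was 0.11 after the percentile shift and 0.20 without normalization, with 0.01 without EPC replicate 1 or EPC_acLDL replicate 2 and a range of -0.13 to 0.01 with 1 array left out, Gadd45a was -0.10 without EPC replicate 1 (range -0.10 to 0.48), and Birc5 was 0.06 with the shift and 0.15 without normalization. For EPC_Late against EPC, Cdk2 was 0.06 without normalization or without EPC_Late replicate 2 and 0.23 without EPC replicate 2 (range -0.31 to 0.23), where Cdkn2c was -0.05. For EPC_Late against EPC_acLDL, Cdkn2c was -0.09 with the shift and -0.10 without normalization, and Cdc20 was 0.03 without EPC_acLDL replicate 2 (range -0.36 to 0.03). Under these scalings the median of all probes was 0.16, 0.02 and -0.15 with the shift and 0.25, 0.09 and -0.16 without normalization, against 0.01, 0.01 and 0 in the main setting, in the order EPC_acLDL against EPC, EPC_Late against EPC, EPC_Late against EPC_acLDL.

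The replicate numbers were not treated as pairs, as nothing in the labels ties them. After normalization, same-numbered arrays deviated from their line means with correlations of 0.08, 0.02 and 0.03. These correlations cannot show a shift of whole arrays, which quantile normalization removes. Before it, replicate 2 had the higher median in each line (342.4 against 311 in EPC, 345.2 against 304.6 in EPC_acLDL, 358.7 against 336.6 in EPC_Late). With the replicate number as a block, 4 member probes passed in EPC_Late against EPC (9 of the wider set), 4 in EPC_Late against EPC_acLDL (7 of the wider set) and 0 in EPC_acLDL against EPC. Over all probes the block left 43, 547 and 458 calls of 77, 557 and 487, in the order of the shifts.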
